A study of Mus musculus with 2 samples.

Results

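The barcodes described here carried RNA of MHC class II, the molecule with which antigen-presenting cells show peptides to CD4+ T cells, inside libraries that had been sorted for T cells. They were chosen by their own counts of unique molecular identifiers (UMIs, 1 for each captured RNA molecule). A barcode was taken when it held 500 genes or more, mitochondrial UMIs of 10% or less, at least 10 UMIs of H2-Aa, H2-Ab1 and H2-Eb1 together, and Krt8 and Krt18 keratin UMIs under 500 CPM (UMIs per 1000000 UMIs counted). This rule found 122 class II barcodes among 6987 that passed the first pair of limits and 7366 in the deposited matrices. The female library held 42 of 3468 (1.21%, 95% exact interval 0.874 to 1.63) and the male library 80 of 3519 (2.27%, 1.81 to 2.82), a difference of -1.06 percentage points (-1.71 to -0.433), female minus male. With every barcode thinned to 2977 UMIs before the rule was applied, that difference was -0.39 points (-0.77 to -0.0398). Because the class II counts chose them, their class II and co-occurring myeloid levels are given as description, with no test.

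The study compared T cells from MB49 tumors, a transplanted mouse bladder carcinoma line, between female and male C57BL/6J mice aged 12 to 14 weeks. Tumors were taken on day 14 after transplant and digested with collagenase, and viable CD4+ T cells were sorted by flow cytometry. Each sex was 1 library of the 10x 5' chemistry, and the labels do not say how many mice stand behind it. No difference between the sexes therefore has a replicate check, and every interval below covers counting error only. The labels state 10000 to 20000 cells for each library, and the deposited matrices held 3658 barcodes in female and 3708 in male data. After the limits on genes and mitochondrial UMIs, the summed depth was 55647457 UMIs in female and 50716597 in male data.

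Antigen-presenting cells load peptides onto the class II alpha and beta chains with the help of the invariant chain Cd74 and the H2-DM exchange factors, and macrophages, dendritic cells (DCs) and B cells are their main kinds. CD4+ T cells bind these complexes with their receptor, and activated ones show CD40 ligand (Cd40lg), which engages CD40 on the presenting cell and raises its costimulatory ligands. Regulatory T cells, defined by the transcription factor Foxp3, compete for the same ligands through Ctla4 and can form close contacts with DCs. A droplet that takes up a T cell and a presenting cell together gives 1 barcode with the RNA of both.

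Transcription of the class II genes is switched on by the coactivator CIITA, which is recruited to an X box and a Y box just upstream of each gene. The promoters of 2 of the 3 genes that define the barcodes are shown from RefSeq on GRCm38.p6, because the same short pair of letters stands in both. Capitals mark the core of the X box (GCAAC) and of the Y box (ATTGG), read on the gene's own strand.
H2-Aa, chr17:34287774-34288073, minus strand: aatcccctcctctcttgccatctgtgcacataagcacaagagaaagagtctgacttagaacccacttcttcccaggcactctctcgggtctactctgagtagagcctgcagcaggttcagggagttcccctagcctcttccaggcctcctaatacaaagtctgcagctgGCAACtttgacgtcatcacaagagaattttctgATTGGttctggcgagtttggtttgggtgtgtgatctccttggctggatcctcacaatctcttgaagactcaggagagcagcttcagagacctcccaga
H2-Eb1, chr17:34305617-34305916, plus strand: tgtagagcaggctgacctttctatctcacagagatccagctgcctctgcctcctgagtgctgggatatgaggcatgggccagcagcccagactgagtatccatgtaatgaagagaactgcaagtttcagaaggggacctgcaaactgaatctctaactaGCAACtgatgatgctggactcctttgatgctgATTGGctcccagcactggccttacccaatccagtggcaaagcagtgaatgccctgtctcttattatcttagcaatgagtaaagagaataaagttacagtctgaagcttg
The X core began 81 bases before the start of H2-Aa and 91 bases before that of H2-Eb1, followed by 28 and 27 bases and then the Y core. Among 32851 mouse promoters of the same 300 bases, 12289 (37.4%) held the Y core on either strand. The X core followed on the same strand by the Y core within 15 to 35 bases stood in 336 (1.02%). A letter match is a description and not a measured binding site. H2-Ab1, the beta chain partner of H2-Aa, lies in the same cluster at chr17:34257689-34269419 on the plus strand (GRCm38).

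Most class II barcodes also held T cell RNA, as did most kept barcodes. Among kept barcodes outside the class II group, Cd3e was found in 3223 of 3426 in female and 3073 of 3439 in male data. At least 1 UMI of Cd3e, a signalling chain of the T cell receptor complex, was found in 37 of 42 female (88.1%, 74.4 to 96.0) and 78 of 80 male (97.5%, 91.3 to 99.7) class II barcodes, a difference of -9.40 points (-23.3 to 0.682). The other 5 female and 2 male barcodes held no UMI of Cd3d, Cd3e, Cd3g, Trac, Trbc1 or Trbc2. Keratin-rich barcodes with the same class II minimum held Cd3e in 1 of 12 in female and 0 of 11 in male data. Their median depths were 65558 and 43236 UMIs. Whether free RNA added Cd3e or class II UMIs to barcodes was not tested. Class II barcodes with Cd3e were deep: their median was 55169 UMIs in female and 37396.5 in male data, against 9945 and 8441 UMIs in the remaining barcodes with Cd3e, called T cell barcodes here. The 7 without Cd3e had medians of 5456 UMIs in female and 9594 in male data.

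**Figure D1:**
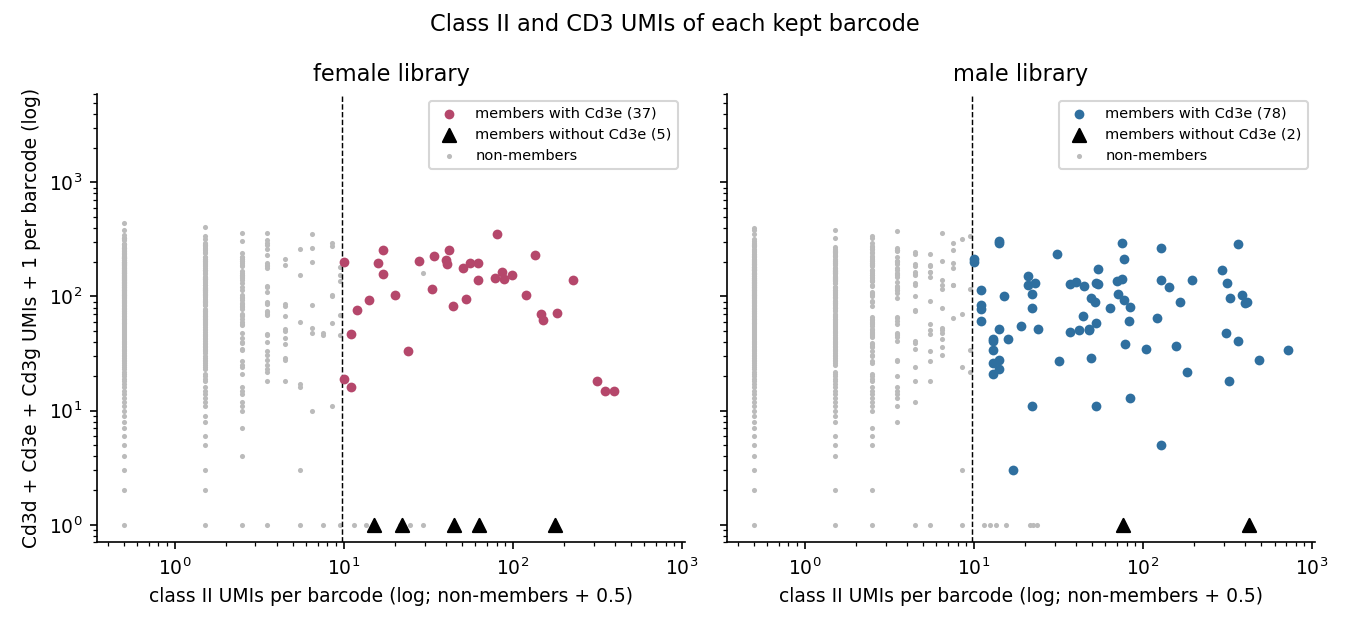
Each point is a kept barcode, with class II UMIs on the x axis and Cd3d, Cd3e and Cd3g UMIs plus 1 on the y axis, both on log scales; the dashed line is the class II minimum of 10 UMIs. Colored points are class II barcodes (members) with Cd3e, black triangles those without and grey points all others; members with Cd3e lie at CD3 counts with medians of 139 UMIs in female and 79 in male data, and the 5 female and 2 male triangles lie on the floor.

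Depth is therefore part of the rule, since a deep barcode reaches 10 UMIs more easily. The class II barcodes with Cd3e were set against 2 groups: all T cell barcodes (3223 female, 3073 male), and the deep T cell barcodes, which had at least the lower quartile of UMIs of the class II barcodes with Cd3e (414 female, 613 male). The deep group had medians of 48504.5 UMIs in female and 34844 in male data, near those of the class II barcodes. CD3 counts were 139 UMIs in female and 79 in male class II barcodes with Cd3e, against 145 and 117 in deep T cell barcodes. Of all T cell barcodes, 10.8% in female and 14.4% in male data held at least 1 class II UMI. Between the libraries, 16 barcode sequences were shared, 1 of them a female class II barcode and none a male one.

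The given markers were all present, at uneven levels. The summed H2-Aa level was 625 CPM in female and 1068 CPM in male class II barcodes with Cd3e, against 2.24 and 2.68 CPM in deep T cell barcodes. Cd74 stood at 1549.9 CPM in female and 2379 CPM in male class II barcodes with Cd3e, against 89.5 and 141 CPM in deep T cell barcodes, and every one of them held it. Il1b, the gene of the cytokine interleukin 1 beta, was found in 30 of 37 female and 60 of 78 male barcodes, at 339 and 546 CPM against 4.29 and 18.9 CPM in deep T cell barcodes. Lyz2, the lysozyme of macrophages and neutrophils, was found in 15 of 37 female and 32 of 78 male barcodes, at 109.8 and 130.4 CPM against 1.55 and 2.95 CPM. The marker set was thus complete in part of the barcodes, and Cd74 was the marker found in all.

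The class II dose varied widely between barcodes. Those with Cd3e held a median of 51 class II UMIs in female data (range 10 to 396) and 50.5 in male data (10 to 723). Those without Cd3e held 15 to 177 in female data, with a median of 45, and 76 and 421 in male data. Fewer than 20 class II UMIs were counted in 10 female and 20 male class II barcodes. Just inside the limit, 5 female and 6 male barcodes with 10 to 12 class II UMIs, all with Cd3e, carried Cd74 at 906 and 519 CPM and Lyz2 at 83.6 and 41.5 CPM. Just outside, 13 female and 16 male barcodes with 7 to 9 class II UMIs carried Cd74 at 452 and 405 CPM and Lyz2 at 23.6 and 13.3 CPM. Other myeloid genes did not keep this order. Il1b stood at 0 CPM in female and 49.9 in male barcodes just inside, against 83.5 and 346 CPM just outside. Tyrobp was at 132 CPM inside and 47.1 outside in female data, and at 24.9 inside and 58.6 outside in male data.

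The genes that most separated class II barcodes with Cd3e from deep T cell barcodes in both libraries were those of antigen presentation and of myeloid cells, and no test is given because the same cells chose them. Ranked by the lowest interval bound of the libraries, Cd209a, a C-type lectin of conventional type 2 DCs (cDC2), stood behind H2-Aa and H2-Eb1 and before H2-Ab1, followed by Plbd1, Lyz2, Csf2rb (the shared receptor chain for GM-CSF and related cytokines), H2-DMb1, Il1b, Tgfbi and Spi1. Cd209a was found in 8 of 37 female and 12 of 78 male barcodes at 24.9 and 44.1 CPM, against 0.0912 and 0.0777 CPM in deep T cell barcodes. Spi1, which encodes PU.1, the master regulator of myeloid cells, was found in 24 of 37 female and 54 of 78 male barcodes at 40.1 and 65.1 CPM, against 0.912 and 2.14 CPM. Tyrobp, the signalling adaptor of myeloid and natural killer receptors, stood at 208 and 238 CPM against 11.8 and 18.0 CPM.

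Lists of lineage genes were then counted per barcode, a list being carried at 3 UMIs over at least 2 of its genes. Of class II barcodes with Cd3e, the macrophage list (Cd14, C1qa, C1qb, Apoe, Fcgr1 and others) was carried by 19 of 37 in female data (51.4%, 34.4 to 68.1) and 37 of 78 in male data (47.4%, 36.0 to 59.1). Among deep T cell barcodes it was carried by 2.42% and 4.57%. The cDC2 list (Cd209a, Clec10a, Mgl2, Sirpa and others) was carried by 8 of 37 female (21.6%, 9.83 to 38.2) and 17 of 78 male barcodes (21.8%, 13.2 to 32.6), against 0 of 414, which allows a share of up to 0.725%, and 2 of 613 (0.326%) in deep T cell barcodes. Because the class II minimum chose these barcodes, their higher shares than in deep T cell barcodes are a description and not a test. Between the 2 libraries these shares did not differ beyond counting error.

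Other lists could not be read in this way, since T cells transcribe some of their genes. The plasmacytoid DC list, which holds Runx2, was carried by 64.9% of female and 66.7% of male class II barcodes with Cd3e and by 65.2% and 63.8% of deep T cell barcodes. The pan-myeloid list was carried by all 37 female and 78 male class II barcodes with Cd3e and by 93.0% and 92.2% of deep T cell barcodes, where Cst3 alone stood at 249 and 269.8 CPM. The lists were therefore trimmed, after the values had been seen, to genes under 5 CPM in the non-members of both libraries. The trimmed pan-myeloid list (Spi1, Csf1r, Itgam, Aif1, Csf2rb) was carried by 26 of 37 female and 53 of 78 male class II barcodes with Cd3e, against 7 of 414 and 20 of 613 deep T cell barcodes. The trimmed macrophage list was carried by 15 female and 29 male, and the trimmed monocyte list (Chil3, Vcan, F13a1, Ly6i, Clec4e) by 8 female and 13 male.

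Among the DC kinds, the order depended on the list version. On the full lists the mature DC list was carried by 21 of 37 female and 36 of 78 male class II barcodes with Cd3e, against 41.3% and 34.7% of deep T cell barcodes, and the cDC1 list by 12 and 14, against 5.07% and 5.87%. The cDC2 list lost no gene by trimming. The trimmed list of genes shared by conventional DCs (Flt3, Kmo, Batf3, Cd24a) was carried by 8 of 37 female barcodes, as many as the cDC2 list, and 13 of 78 male ones, against 1 of 414 and 6 of 613 deep T cell barcodes. The trimmed list of mature DCs, which have taken up antigen and migrate (Fscn1, Ccl22, Il4i1, Cacnb3), was carried by 5 of 37 female and 12 of 78 male class II barcodes with Cd3e, against 4 of 414 and 10 of 613 deep T cell barcodes. The trimmed list of type 1 DCs (cDC1, which cross-present to CD8 T cells) was carried by 5 female and 5 male, and rested mostly on Naaa and Wdfy4. Their defining receptor Clec9a had 1 UMI in female and 4 in male class II barcodes with Cd3e. Siglech, a receptor of plasmacytoid DCs, had 0 and 15 UMIs, those of the male library in 2 barcodes.

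The B cell list was carried by 8 of 37 female (21.6%, 9.83 to 38.2) and 14 of 78 male (17.9%, 10.2 to 28.3) class II barcodes with Cd3e, against 10.6% and 11.4% of deep T cell barcodes. Its most counted gene, Ighm, the heavy chain of IgM, stood at 27.9 CPM in female and 45.1 CPM in male class II barcodes with Cd3e, against 24.0 and 34.4 CPM in deep T cell barcodes, and is not on the trimmed list. The trimmed B cell list was carried by 0 of 37 female and 1 of 78 male class II barcodes with Cd3e, against 0 of 414 and 1 of 613 deep T cell barcodes. Cd79a, a chain of the B cell receptor complex, had 1 UMI in female and 9 in male class II barcodes with Cd3e. The plasma cell list was carried by 0 of 37 female and 0 of 78 male, which allows shares of up to 8.11% and 3.85%, and the neutrophil list by 2 female and 0 male, the neutrophil alarmin S100a8 having 2 UMIs and 1 UMI. The natural killer cell list was carried by 0 female and 6 male, the fibroblast list by 2 and 2, and the erythroid list by none. Summed, the natural killer cell list stood at 15.8 and 38.9 CPM, below its 29.8 and 43.4 CPM in deep T cell barcodes. The fibroblast list stood at 25.9 and 78.1 CPM, against 31.1 and 36.7 CPM there.

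**Figure D2:**
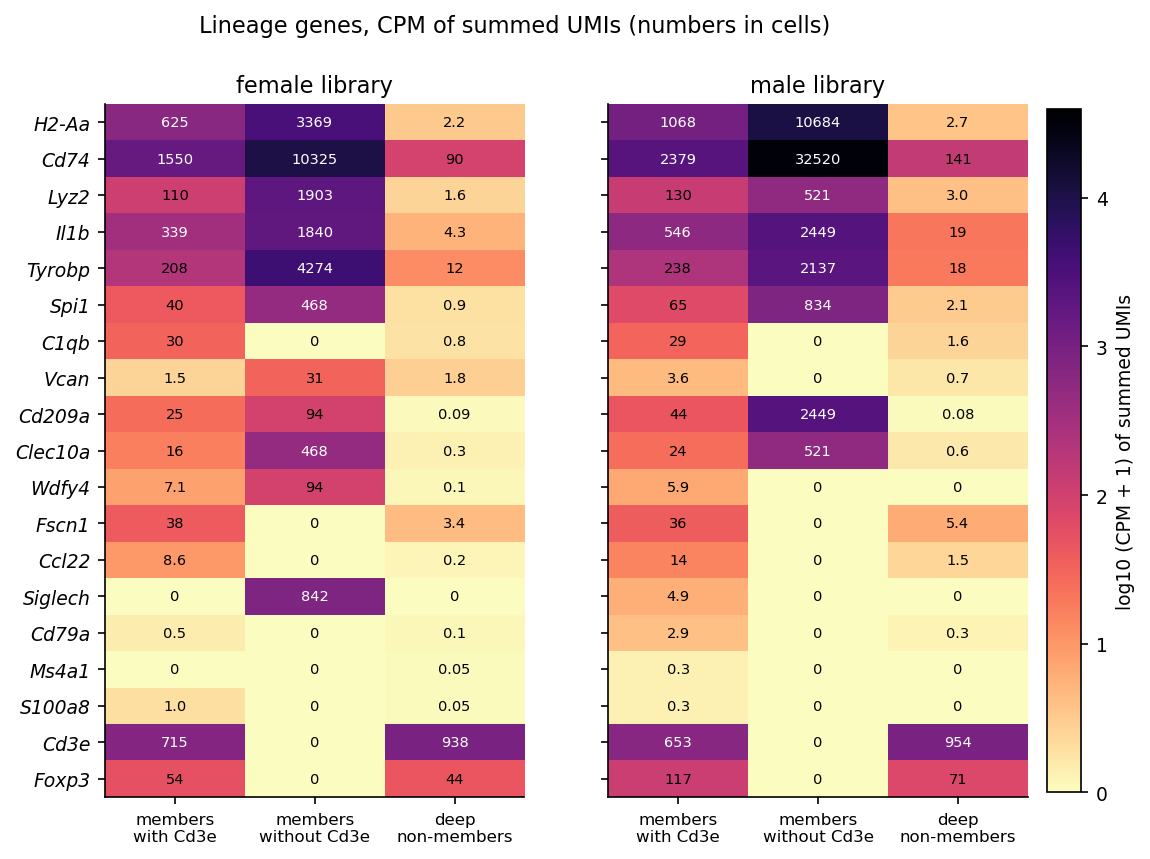
Summed CPM of marker genes (numbers and color, log10 of CPM plus 1) in class II barcodes (members) with Cd3e, those without Cd3e, and deep T cell barcodes, female library left and male library right. Cd209a, Spi1 and Lyz2 are near 0 in deep T cell barcodes and present in both kinds of class II barcode, while Cd3e is 0 in those without it by choice.

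The 7 barcodes without Cd3e were shallow, and each is given by chosen genes, not always its most counted ones, because a handful of cells is no population. In the female library, the deepest (10935 UMIs, 63 of class II) held the plasmacytoid DC genes Klk1 (54 UMIs), Siglech (27), Cox6a2 (19), Ly6d (18) and Ccr9 (13), and 7 UMIs of Cd4, which these cells can transcribe in mice. It also carried the cDC2 list, through Clec10a (13) and Mgl2 (1). Ccl4 (174), Cd74 (92) and Tyrobp (80) had more UMIs in it than Klk1. The next (6968 UMIs, 45 of class II) held Apoe (16), Cd14 (8) and Il1b (29), with the conventional DC genes Batf3 (2) and Kmo (1). One of 5456 UMIs held the most class II RNA of the 5 (177 UMIs), with Cst3 (36) and Il1b (28). It held genes of both the cDC1 list (Wdfy4, 3, Naaa, 2, and Clec9a, 1) and the cDC2 list (Clec10a, 2, and Cd209a, 2). Another (5210 UMIs, 15 of class II) held Lyz2 (42), Csf1r (7) and Spi1 (7), and the last (3488 UMIs, 22 of class II) held Cebpb (38), Lyz2 (13) and the interleukin 1 antagonist Il1rn (13).

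Both male barcodes without Cd3e carried cDC2 genes. The first (12000 UMIs, 421 of class II) held Cd74 (533), Cd209a (43), Il1b (43) and Clec10a (7). The second (7188 UMIs, 76 of class II) held Ctsb (19), Cd14 (11), Cd209a (4) and Clec10a (3). By the trimmed macrophage, monocyte, cDC1, cDC2, mature DC and plasmacytoid DC lists, 3 of the 5 female barcodes carried a macrophage or monocyte list and 2 a DC list, and both male ones a DC list.

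Myeloid RNA was a smaller share of all UMIs when Cd3e was present. T cell RNA adds to the total in those barcodes and lowers the CPM of other genes, so the direction is a description only. As UMIs, the pan-myeloid list had 3363 over 37 barcodes with Cd3e and 466 over 5 without it in female data. In male data it had 6717 over 78 and 149 over 2. The summed pan-myeloid list stood at 1709 CPM with Cd3e and 14537 CPM without it in female data, a log2 ratio of -3.09 (-3.23 to -2.95), and at 2196 and 7765 CPM in male data, a ratio of -1.82 (-2.06 to -1.58). Spi1 stood at 40.1 CPM with Cd3e, against 468 CPM without, in female data, and at 65.1 CPM against 834 CPM in male data. Alox5ap, which helps make leukotrienes, and Plbd1 followed the same course, with log2 ratios of -3.47 and -3.92 in female and -4.55 and -3.45 in male data.

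Genes of T cells ran the other way, which the split by Cd3e fixes. Gzmb had 2674 UMIs in female and 5122 in male barcodes with Cd3e and none in those without. At least 1.5-fold higher with Cd3e were 37.6% of 657 measured genes in female and 23.3% of 365 in male data, and at least 1.5-fold lower were 40.8% and 35.6%. Against these shares, 7 of 7 measured pan-myeloid genes in female and 5 of 6 in male data were lower with Cd3e. Since only 5 and 2 barcodes stand on one side, and T cell RNA lowers other CPM values on the other, these ratios describe those barcodes. Without the keratin limit the pan-myeloid ratios turned to 0.54 in female and 1.27 in male data.

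Most class II barcodes with Cd3e held several T cell receptor beta variable (Trbv) segments, but so did deep barcodes in general. A single T cell normally expresses 1 rearranged beta chain. At 2 UMIs or more, the median number of Trbv segments was 5 in female and 3 in male class II barcodes with Cd3e, against 4 and 3 in deep T cell barcodes and 1 and 1 in all T cell barcodes. At least 2 segments were found in 31 of 37 female (83.8%, 68.0 to 93.8) and 58 of 78 male (74.4%, 63.2 to 83.6) class II barcodes with Cd3e. The deep T cell barcodes held them in 87.4% and 82.7% and all T cell barcodes in 39.5% and 36.5%. At 3 segments or more the shares were 73.0% in female and 51.3% in male class II barcodes with Cd3e, against 72.7% and 61.7% of deep T cell barcodes. The largest numbers differed in female data, where 8 segments or more were held by 10 of 37 class II barcodes with Cd3e (27.0%), against 28 of 414 deep T cell barcodes (6.76%), and in male data by 5 of 78 (6.41%), against 30 of 613 (4.89%). Whether they came from 1 T cell or from more was not tested.

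The T cells sorted as CD4+ held much Cd8 RNA. Among all T cell barcodes, at least 2 UMIs of Cd8a and Cd8b1 were found in 79.0% of the female and 73.0% of the male library, and a Cd4 UMI in 23.3% and 26.2%. Among class II barcodes with Cd3e, the Cd8 share was 33 of 37 in female data (89.2%) and 67 of 78 in male data (85.9%), against 99.0% and 99.0% of deep T cell barcodes. How much Cd8 RNA came from cells outside the sort gate was not tested.

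Foxp3 was found in a larger share of class II barcodes with Cd3e than of deep T cell barcodes, by counts at full depth. It was detected in 25 of 37 female (67.6%, 50.2 to 82.0) and 58 of 78 male (74.4%, 63.2 to 83.6) class II barcodes with Cd3e. In deep T cell barcodes the shares were 46.9% and 51.1%, and in all T cell barcodes 18.2% and 24.6%. The difference from the deep barcodes was 20.7 points (2.67 to 35.9) in female and 23.3 points (11.4 to 33.4) in male data. The 5 female and 2 male class II barcodes without Cd3e held no Foxp3 or Cd40lg UMI.

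Barcodes with Foxp3 and without Cd8 were rare in the deep group. Among class II barcodes with Cd3e they were 4 of 37 in female data (10.8%, 3.03 to 25.4) and 10 of 78 in male data (12.8%, 6.32 to 22.3), against 0.483% and 0.816% of deep T cell barcodes, though 7.29% and 11.1% of all T cell barcodes were of this kind. Cd8 without Foxp3 marked 12 of 37 female (32.4%) and 19 of 78 male (24.4%) class II barcodes with Cd3e, against 52.7% and 48.8% of deep T cell barcodes. At full depth, a Cd4 UMI was found in 67.6% of female and 66.7% of male class II barcodes with Cd3e, against 42.3% and 44.4% of deep ones.

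With each barcode thinned to 2977 UMIs, Foxp3 was seen in 6 of 37 female (16.2%, 6.19 to 32.0) and 25 of 78 male (32.1%, 21.9 to 43.6) class II barcodes with Cd3e. The thinned deep T cell barcodes gave 11.6% and 15.5%, and all T cell barcodes gave 9.90% and 15.5%, with 133 female and 183 male shallower ones left out. At this depth the male interval lay above both groups and the female one included them. A Cd4 UMI was seen at this depth in 2 of 37 female class II barcodes with Cd3e (5.41%, 0.661 to 18.2). In male data it was seen in 9 of 78 (11.5%, 5.41 to 20.8). Deep T cell barcodes gave 5.80% and 8.48% and all T cell barcodes 11.3% and 12.6% for Cd4, inside those intervals.

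**Figure D3:**
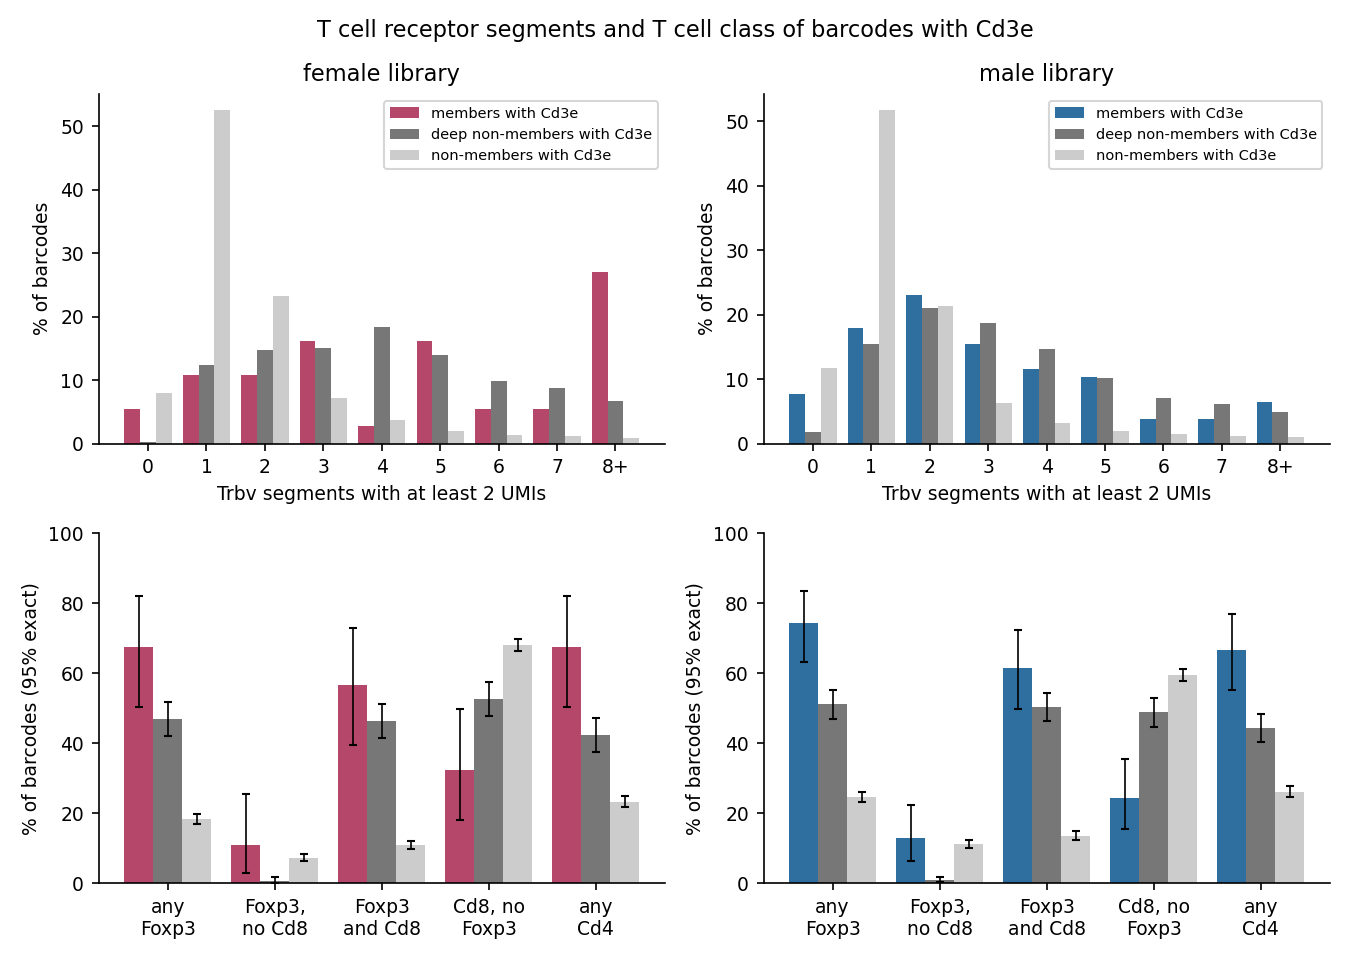
Top, share of barcodes (y axis, %) by number of Trbv segments with at least 2 UMIs (x axis); bottom, share of barcodes (y axis, %, bars are 95% exact intervals) with Foxp3, Cd8 (at least 2 UMIs of Cd8a and Cd8b1) and Cd4 UMIs. Class II barcodes with Cd3e (members, colored) hold 8 segments or more in 27.0% against 6.76% of deep T cell barcodes (dark grey) in female and 6.41% against 4.89% in male data, and any Foxp3 is at 67.6% against 46.9% in female and 74.4% against 51.1% in male data.

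To compare T cell genes without the diluting RNA of another cell, UMIs were divided by those of Cd3d, Cd3e and Cd3g. This does not remove RNA of the same genes that the other cell adds. Foxp3 stood at 21.5 UMIs per 1000 CD3 UMIs in female and 48.6 in male class II barcodes, against 16.7 and 27.2 in all T cell barcodes and 14.9 and 22.7 in deep ones. The log2 ratio over all T cell barcodes was 0.37 (0.07 to 0.65) in female and 0.84 (0.68 to 0.995) in male data, and over deep ones 0.53 and 1.10. As CPM of all UMIs, the ratio over all T cell barcodes was 0.01 and 0.46. Ikzf2, which encodes the regulatory T cell factor Helios, was higher by 0.73 (0.60 to 0.86) and 0.83 (0.74 to 0.93). Itgb8, an integrin chain with which regulatory T cells activate TGF-beta, was higher by 1.17 and 1.24, and Il2ra, the high-affinity interleukin 2 receptor chain, by 0.61 and 0.60. Of the same list, Ikzf4 was higher by 1.02 and 0.54, Tnfrsf4 by 0.32 and 0.42, and Tnfrsf18 by 0.26 and 0.45. Some genes of the list were not higher in both libraries. Ctla4 was at -0.33 (-0.45 to -0.21) in female and 0.43 (0.36 to 0.49) in male data. The chemokine receptor Ccr8 was at -0.18 (-0.44 to 0.07) and -0.10 (-0.30 to 0.09).

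These values stand against a general shift, since the median gene was higher by 0.32 in female and 0.35 in male data. At least 1.5-fold higher than in all T cell barcodes were 19.2% of 7897 measured genes in female and 22% of 7976 in male data, and at least 1.5-fold lower were 1.32% and 0.777%. Of the regulatory T cell list, 4 of 10 measured genes in female and 5 of 10 in male data were past 1.5-fold higher and none lower, with medians of 0.35 and 0.57. The male median was above that of all genes and the female one near it. Against deep T cell barcodes, where 13.1% of genes in female and 24.5% in male data were higher and 2.25% and 0.664% lower, the list had 2 of 9 and 4 of 10 genes higher.

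Several cytotoxic genes were below the level of T cell barcodes. Gzmf, a granzyme of strongly activated CD8 T cells, stood at 43.1 UMIs per 1000 CD3 UMIs in female and 73.4 in male class II barcodes, against 93.1 and 128 in all T cell barcodes, log2 ratios of -1.11 (-1.31 to -0.92) and -0.81 (-0.93 to -0.68). Gzmc was lower by the same measure, at -0.46 and -0.25. Gzma was at -0.20 in female and -1.24 (-1.37 to -1.12) in male data, and the perforin gene Prf1 at -0.13 and 0.20. Of the 10 cytotoxic genes, 1 in female and 3 in male data were past 1.5-fold lower and none higher, with list medians of -0.19 and -0.17.

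Against all T cell barcodes, genes induced through the T cell receptor moved in both directions. Egr2 was higher by 1.10 (0.12 to 1.94) in female and 1.33 (0.75 to 1.87) in male data, on 12 and 32 UMIs. Nr4a3, a factor induced soon after receptor engagement, stood at 67.7 UMIs per 1000 CD3 UMIs in female and 93.0 in male class II barcodes, against 49.7 and 46.5 in all T cell barcodes. Its relative Nr4a1 was at -0.07 (-0.24 to 0.10) and 0.06 (-0.05 to 0.17). Class II barcodes without Cd3e also held Nr4a1, at 593 CPM (19 UMIs) in female and 678 CPM (13 UMIs) in male data. Dusp2, a phosphatase of MAP kinases, was lower, at -0.47 (-0.62 to -0.34) and -0.59 (-0.70 to -0.48), and the early activation marker Cd69 at -0.40 and -0.21. Of this list, 1 of 9 measured genes in female and 3 of 10 in male data were past 1.5-fold higher, and 0 and 1 past 1.5-fold lower. Against deep T cell barcodes the order differed: Cd69 was at 0.30 (0.07 to 0.53) in female and 0.48 (0.33 to 0.63) in male data. By that measure Nr4a1 was at 0.45 and 0.53, and Dusp2 at 0.20 and -0.01. There 2 of 9 and 4 of 10 genes were past 1.5-fold higher and none lower, against 13.1% and 24.5% of all measured genes higher. The inhibitory receptor Pdcd1 was at -0.26 and -0.23 against all T cell barcodes.

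Markers of resting T cells depended on which T cell barcodes stood beside them. Klf2, a factor of quiescent and circulating T cells, was lower than in all T cell barcodes, with ratios of -0.73 (-0.96 to -0.52) in female and -0.53 (-0.64 to -0.42) in male data, and higher than in deep ones, by 0.40 and 0.60. Tcf7, which keeps memory and stem-like T cells, was at -0.74 and -1.55 against all, and at 0.29 and -0.33 against deep barcodes. The cell cycle genes showed the same dependence: Mki67 was higher by 0.90 in both libraries against all T cell barcodes and by 0.12 and 0.35 against deep ones. Depth and T cell state cannot be told apart for these genes. Klf2 was also counted in class II barcodes without Cd3e, at 780 CPM (25 UMIs) in female and 104 CPM (2 UMIs) in male data. How much of it came from presenting cells was not tested.

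**Figure D4:**
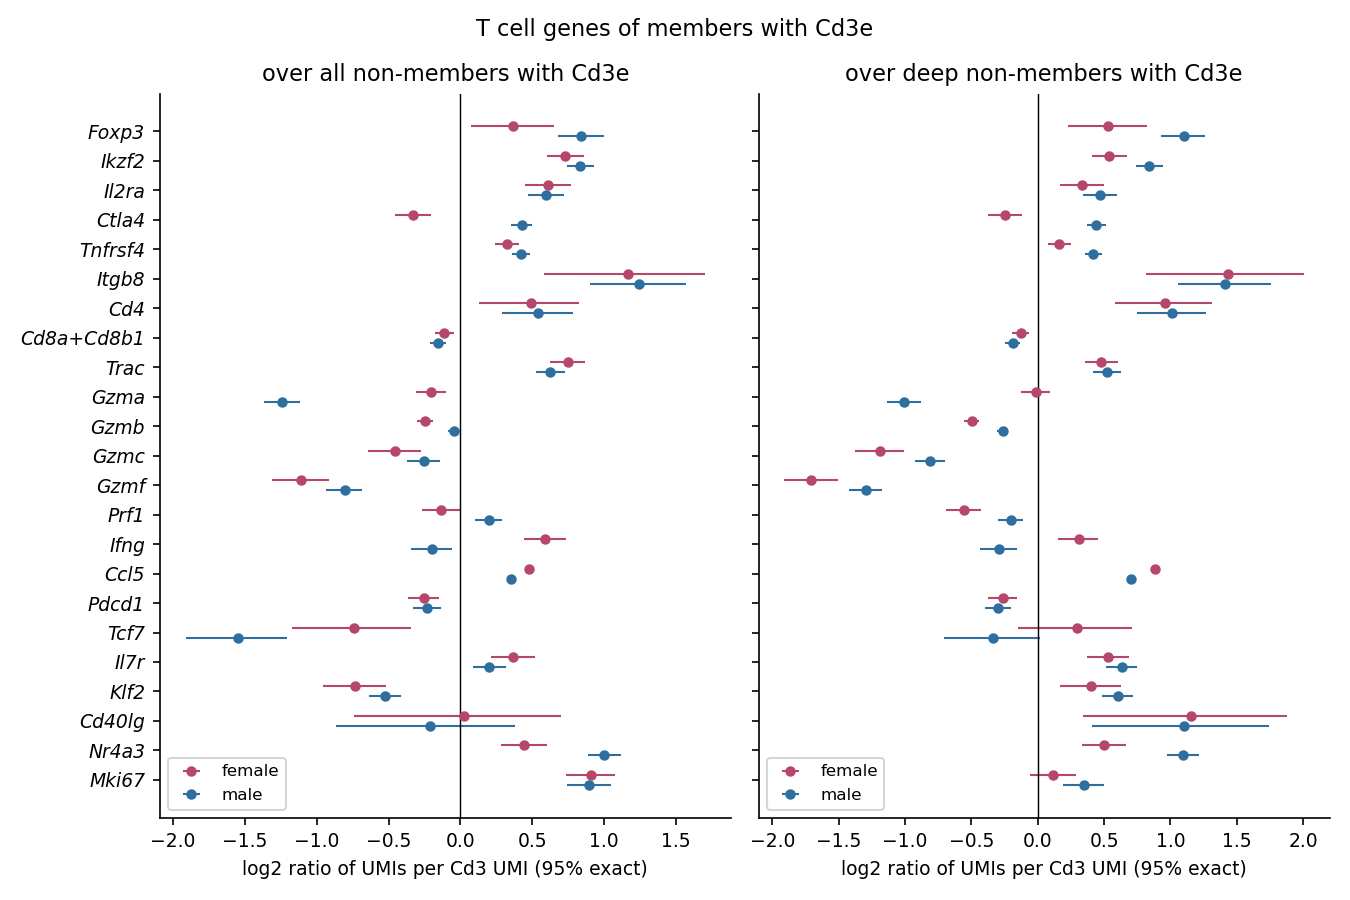
Log2 ratio (x axis, 95% exact intervals) of UMIs per CD3 UMI for T cell genes (y axis), class II barcodes with Cd3e over all T cell barcodes (left) and over deep ones (right), female and male libraries in separate colors. Foxp3, Ikzf2 and Itgb8 lie above 0 in both panels and Gzmf below 0, whereas Klf2 is at -0.73 and -0.53 on the left and 0.40 and 0.60 on the right.

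Foxp3 was found more often beside DC genes than beside macrophage genes in male data; in female data the interval of the difference in shares covered 0. By the trimmed lists, in a split made after the values had been seen and with a DC list meaning cDC1, cDC2, mature or plasmacytoid DC, 9 female and 21 male class II barcodes with Cd3e carried a DC list and no macrophage or monocyte list. A macrophage or monocyte list without a DC list was carried by 7 female and 24 male, both kinds by 8 and 8, and neither by 13 and 25. Class II UMIs had medians of 136 and 127 in the DC group, 62 and 43 in the macrophage group and 24 and 19 with neither. Foxp3 was found in 7 of 9 female (77.8%) and 18 of 21 male (85.7%, 63.7 to 97.0) barcodes of the DC group, against 4 of 7 (57.1%) and 11 of 24 (45.8%, 25.6 to 67.2) of the macrophage group. The difference was 20.6 points (-29.5 to 64.0) in female and 39.9 points (9.19 to 63.1) in male data, at median depths of 39750 and 38788 UMIs in the DC group and 53923 and 39081.5 in the macrophage group. With neither list, Foxp3 was found in 8 of 13 female (61.5%) and 24 of 25 male (96.0%) barcodes. With both kinds it was found in 6 of 8 and 5 of 8.

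Per 1000 CD3 UMIs, Foxp3 stood at 39.0 in female and 57.7 in male DC barcodes, against 8.84 (7 UMIs) and 27.8 in macrophage barcodes, with log2 ratios of 2.14 (0.98 to 3.54) and 1.06 (0.62 to 1.51). These intervals are of UMIs, and the barcodes of a library are not replicates. Barcodes with neither list stood between these groups in female data, at 18.6, and above both in male data, at 67.5. A high Foxp3 level was thus not particular to DC barcodes in male data. Gzma ran the other way, at 70.8 and 23.1 in DC barcodes against 114 and 125 in macrophage barcodes, ratios of -0.68 (-1.14 to -0.23) and -2.44 (-2.89 to -2.02), but 69 of the 78 Gzma UMIs of the female DC barcodes (88.5%) lay in 1 barcode. Ctla4 was at -0.38 (-0.78 to 0.01) in female and 0.78 (0.58 to 0.99) in male data, and the costimulatory receptor Tnfrsf4 (OX40) at -0.26 and 1.02. Most Ifng UMIs of the female DC barcodes (73.7%) came from 1 barcode. All 8 female barcodes that carried the cDC2 list held Foxp3, as did 13 of 17 male ones (76.5%). Among all class II barcodes with Cd3e the shares with Foxp3 were 67.6% in female and 74.4% in male data, the latter near that of the male cDC2 barcodes.

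Cd40, the receptor named in the study's title with its ligand, was counted in few molecules. It was found in 9 of 37 female (24.3%, 11.8 to 41.2) and 20 of 78 male (25.6%, 16.4 to 36.8) class II barcodes with Cd3e, against 2.42% and 1.79% of deep T cell barcodes. It was also found in 1 of 5 female and 2 of 2 male barcodes without Cd3e. In the DC group it was found in 5 of 9 female and 11 of 21 male barcodes, against 0 of 7 and 4 of 24 in the macrophage group, where 0 of 7 allows a share of up to 42.9%. Of barcodes carrying the mature DC list, 3 of 5 female and 7 of 12 male held Cd40.

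Cd40lg was found in 9 of 37 female (24.3%) and 16 of 78 male (20.5%) class II barcodes with Cd3e, against 14.7% and 12.2% of deep and 9.40% and 9.40% of all T cell barcodes. Per CD3 UMI it was at 0.03 (-0.74 to 0.70) and -0.21 (-0.87 to 0.38) against all T cell barcodes, and higher by 1.15 (0.34 to 1.88) and 1.10 (0.41 to 1.74) than in deep ones, on 18 and 24 UMIs. Cd40 and Cd40lg were found together in 2 of 37 female (5.41%) and 3 of 78 male (3.85%) class II barcodes with Cd3e. Cd40lg was thus held by 2 of the 9 female and 3 of the 20 male barcodes with Cd40. Among all of them it was held by 9 of 37 and 16 of 78. Whether the 2 genes occurred together more often than apart was not tested.

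Class II RNA, which chose the barcodes, is given for the sexes as a description only, and its difference depended on the weighting of barcodes. As summed UMIs, H2-Aa had 1338 UMIs in female and 3471 in male class II barcodes, a log2 ratio of -0.75, and Cd74 had 3381 and 7903 UMIs, a ratio of -0.60. Of the genes of the class II pathway, 5 of 11 measured were at least 1.5-fold lower in female data and none higher, with a median of -0.57. Over all 7993 measured genes, 6.47% were at least 1.5-fold lower and 3.97% higher, with a median of -0.01. Taken as the mean of per-barcode CPM, the median of the class II list was 0.00. Lyz2 and Tyrobp, at 277 and 546 UMIs in female and 409 and 768 in male data, differed by 0.06 and 0.13, and the pan-myeloid list had 0 of 12 genes past 1.5-fold, with a median of -0.05.

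Cd40 did not differ between the sexes beyond counting error. It had 21 UMIs in female and 37 in male class II barcodes (10.5 and 12.0 CPM), a log2 ratio of -0.19 (-1.04 to 0.62). Of 13 measured genes of the CD40 and costimulation list, 1 was past 1.5-fold higher in female data and 3 lower, with a median of -0.28. Cd86, a ligand of CD28 and Ctla4, had 102 female and 239 male UMIs, a ratio of -0.61 (-0.96 to -0.27), and the 4-1BB ligand Tnfsf9 had 67 and 161, a ratio of -0.64 (-1.08 to -0.22). Cd80 was at -0.39 (-0.82 to 0.04). Cd70 was the gene on the higher side, on 24 and 17 UMIs. Targets of CD40 signalling through NF-kappa-B were in part closer to even, with Traf1 at -0.15, Relb at -0.23 and Nfkb2 at 0.00. Tnfaip3, of the same list, was at -0.34 (-0.47 to -0.20) on 653 and 1269 UMIs. The summed list stood at 1103 CPM in female and 1341 CPM in male class II barcodes with Cd3e. All T cell barcodes held it at 982 and 1039 CPM. Which cell the RNA of this list came from was not tested.

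Inflammatory and chemokine genes did not move as 1 group between the sexes. Il1b had 726 UMIs in female and 1718 in male data, a ratio of -0.62, and 5 of 9 inflammatory myeloid genes were past 1.5-fold lower in female data and 1, Il1a, higher, on 21 and 8 UMIs. Cxcl2 was at -0.10 (-0.29 to 0.08) and Nlrp3 at 0.04 (-0.63 to 0.69). Of 6 measured T cell chemokines 4 were past 1.5-fold lower and none higher, yet their sum was 4690 CPM in female and 3930 CPM in male data, because Ccl5, which T cells also make, stood at 4622 and 3804 CPM, a ratio of 0.28 (0.24 to 0.32). Cxcl9, a T cell chemokine induced by interferon gamma, had 17 and 64 UMIs, a ratio of -1.29 (-2.16 to -0.50), with 31.3% of the male UMIs in 1 barcode. Cxcl16 had 49 and 126 UMIs, a ratio of -0.74 (-1.25 to -0.25). Cd209a had 52 and 182 UMIs, a ratio of -1.19.

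Among all genes, 116 met the rule for naming by size, at least 50 UMIs, 1.5-fold apart with the interval bound at least 25% away from even. The lowest in female data were Creb5, Ccl1, Serpinb9b, Tff1, Ptger4, Id3, Cxcl9, Nckap5, Ccr1 and Emp1, at -1.90 to -1.22. The highest were Cdk5rap1, Eno1b, Prkcz, Cc2d1a, Sac3d1, Slc39a10, Myc, Fn1, Gzma and Srm, at 1.70 to 1.14. Ccr1, a chemokine receptor of monocytes, had 13.5 CPM in female and 32.2 CPM in male class II barcodes, and 6.10 and 7.26 CPM in all other barcodes. Ccl1, a chemokine that binds Ccr8 on regulatory T cells, had 6.00 and 21.4 CPM there, and was also lower in female data among all other barcodes, at 19.7 and 46.1 CPM.

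The T cell RNA of class II barcodes differed between the libraries as well. Foxp3 had 106 UMIs in female and 357 in male class II barcodes, a log2 ratio of -1.13 (-1.46 to -0.81), and Ctla4 had 547 and 1750, a ratio of -1.06. Gzma had 749 and 524 UMIs, a ratio of 1.14 (0.97 to 1.30). Of 10 measured regulatory T cell genes, 4 were past 1.5-fold lower in female data and none higher. All T cell barcodes also held fewer Foxp3 UMIs in female data, at 16.7 and 27.2 per 1000 CD3 UMIs. Fibroblast genes moved the same way, with the list at 25.5 CPM in female and 77.6 CPM in male class II barcodes. These counts rested on few barcodes: 65.0% of the 103 male Col1a1 UMIs lay in 1 barcode. For Col3a1, 90.5% of the 42 male UMIs lay in 1 barcode. The part of fibroblast RNA in these differences was not tested. With 1 library for each sex, the sexes and the libraries cannot be told apart.

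**Figure D5:**
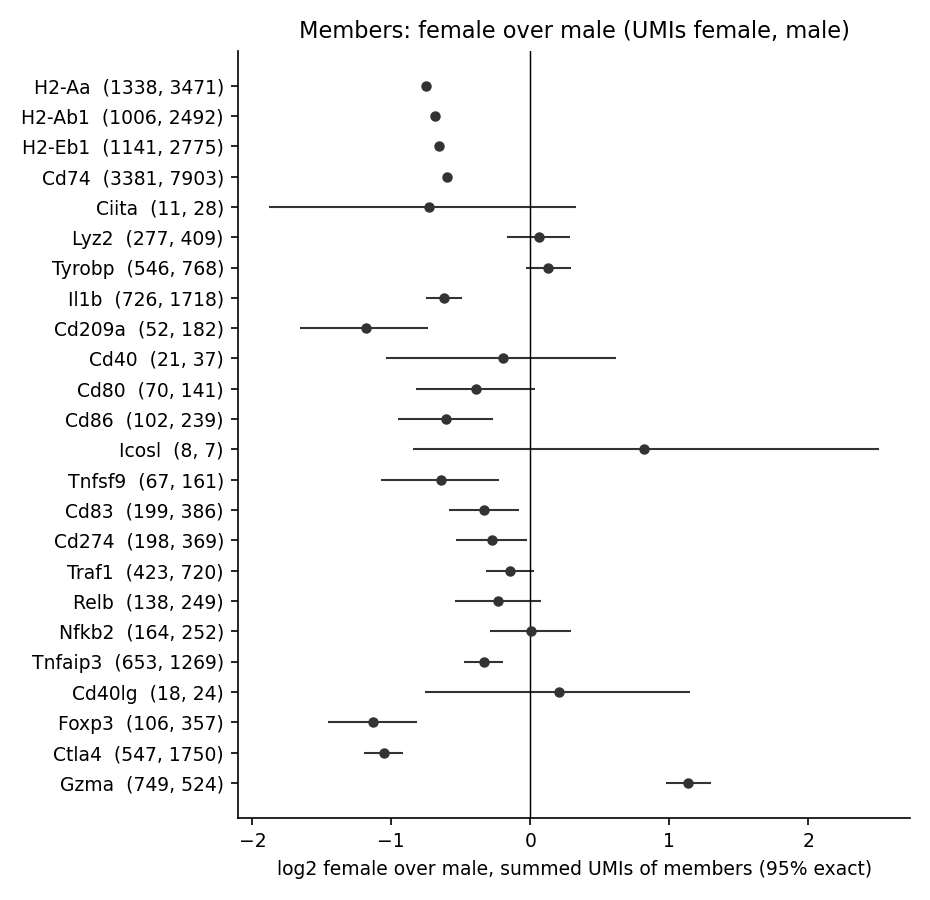
Log2 ratio (x axis, 95% exact intervals), female over male, of summed CPM in class II barcodes (members) for named genes (y axis), with the UMIs of the female and then the male library in brackets. The class II chains and Cd74, drawn without intervals because class II counts chose the barcodes, Il1b, Cd209a, Foxp3 and Ctla4 lie below 0, Gzma above it, and the interval of Cd40 covers 0.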

How the data were processed

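Each library was deposited as a matrix of raw UMI counts per gene and barcode; the authors made these counts, whose file headers name Cell Ranger 7.0.1, and the submitters' processing notes also name Seurat 5 and GRCm38. Aligner settings and doublet removal are not given in the sources used here. No barcode was removed as a doublet, because barcodes with RNA of more than 1 cell are what is described.

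From the counts, barcodes were selected by the rule in the report, and UMIs were summed over each group and divided by the group's total (CPM) or by its Cd3d, Cd3e and Cd3g UMIs. The members and the gene lists were chosen with earlier results of these data known. With 1 library for each sex there is no test and no p-value. Intervals are 95% exact ones (Clopper-Pearson for shares, the conditional interval of 2 Poisson counts for ratios, a difference of shares from the bounds of both), and a count of 0 is read as allowing 3 counts. UMIs of 1 barcode are not independent samples of a group, so intervals are too narrow as a measure of biological spread. Genes were measured at 10 CPM in 1 group and 20 UMIs over both groups (with over without Cd3e, also 10 expected UMIs in each group), and called at 1.5-fold.

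Named genes are the markers, Cd40 and Cd40lg, up to 6 genes with the most UMIs of each list, and the 10 highest and 10 lowest ratios among genes with 50 UMIs, 20 CPM in 1 group, 1.5-fold apart with the interval bound at least 25% away from even, and less than 50% of the higher group's UMIs in 1 barcode. That last limit could not be met by the 2 male barcodes without Cd3e and was not applied there. Genes named outside this rule (such as Csf1r, Ccl24 and the genes given for single barcodes) were chosen after their values were seen. Thinning drew 2977 UMIs per barcode without replacement (seed 1), the 10th percentile of the kept barcodes. Alternatives were other class II, keratin, gene and mitochondrial limits, TMM factors of edgeR 4.0.16 in R 4.3.3, per-barcode means and other gene minima. Python 3.11.15, numpy 2.4.6, scipy 1.17.1, pandas 2.3.3 and matplotlib 3.10.9 were used. Statistics were tested on simulated data. Some genes that the naming rule would take are not reported here.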

Additional observations from a re-analysis of the deposited data

Results flagged for a closer look

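For 3 T cell genes the ratio per CD3 UMI, class II barcodes with Cd3e over T cell barcodes, had intervals clear of 0 on opposite sides in the libraries, both over all T cell barcodes, whose values follow, and over deep ones. Ctla4, the inhibitory receptor of regulatory and activated T cells, was at -0.33 in female and 0.43 in male data, a difference of -0.75. Ifng, the gene of interferon gamma, was at 0.59 and -0.20, a difference of 0.79, and 46.4% of its female UMIs lay in 1 barcode. Myc, which drives growth after activation, was at 1.17 and -0.49, a difference of 1.66, and 31.7% of its female UMIs lay in 1 barcode. The differences were not tested, since each sex has 1 library.

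Keratin-rich barcodes, which the rule leaves out, also held class II RNA. At least 10 class II UMIs were counted in 12 of 39 female (30.8%, 17.02 to 47.6) and 11 of 32 male (34.4%, 18.6 to 53.2) barcodes with keratin at 500 CPM or more. Their class II UMIs ran from 11 to 216 in female and 11 to 135 in male data, with Cd74 at 741 and 647 CPM. Myeloid genes were at or near 0 in them, with Lyz2 at 1.249 and 1.76 CPM and Il1b and Spi1 at 0 in both.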

How the results depend on the processing

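Over 21 settings, 721 values were recomputed. Of these, 558 lay inside the interval of the main value, or within 1.5-fold of it for gene counts, and 149 moved outside. The other 14 changed sign from a main value whose interval excluded 0. Changes of sign where the main interval covered 0 were not counted apart. No paired analysis was possible because each sex is 1 library. The keratin limit mattered most for the contrast with over without Cd3e. Without it the pan-myeloid ratio was 0.54 female and 1.27 male (-3.09 and -1.82 with it), class II machinery 0.24 and 0.60, macrophage 1.10 and 2.27, and cDC2 0.89 female, as keratin-rich barcodes without Cd3e then enter. The pan-myeloid ratio was -3.36 female and -2.42 male at a class II minimum of 5 UMIs, -2.87 female at 20 UMIs, and -2.66 and -1.48 as mean per-barcode CPM. The minimum of 5 UMIs turned Gzmb per CD3 UMI to 0.24 female and 0.13 male. Genes at least 1.5-fold apart between the sexes numbered 834, against 514 at that minimum and 106 at 50 CPM and 50 UMIs.

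Depth limits the shares. When each barcode was thinned to 2977 UMIs before the rule, the female minus male share of class II barcodes was -0.39 points. Members thinned likewise carried the macrophage list in 5.41% (female) and 14.1% (male) and the cDC2 list in 0% and 3.85%. At 10 UMIs over 2 genes, the macrophage list was carried by 29.5% (male) and the cDC2 list by 8.11% and 12.8%. The class II machinery median, female over male, was 0.00 (0.00414) as mean per-barcode CPM. As CPM of all UMIs, Foxp3 was at 0.0113 female and 0.46 male and Ccl5 at -0.0236 male. Against deep T cell barcodes Foxp3 was at 1.10 male and Klf2 at 0.40 female and 0.60 male. In an alternative chosen after seeing the data, male members with at least 50 class II UMIs had Ccl5 at -0.15. Other causes of these shifts were not tested.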

Other observations

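The cytokine genes of presenting cells were unevenly present in class II barcodes. Il12a and Il12b, the subunits of the cytokine that drives type 1 helper cells, had 0 UMIs in both libraries, as did Ccl19 and Ido1. Il10, an inhibitory cytokine that T cells also make, had 28 UMIs in female and 93 in male class II barcodes, a log2 ratio of -1.11 (-1.77 to -0.49), with 21.5% of the male UMIs in 1 barcode. Tgfb1 ran the other way, at 412 and 319 CPM, a ratio of 0.37 (0.23 to 0.50).

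Some chemokine counts rested on few barcodes. Ccl24, an eosinophil chemokine of macrophages, was counted in 9 of 37 female (465 UMIs) and 23 of 78 male (344 UMIs) class II barcodes with Cd3e, a ratio over all class II barcodes of 1.06 (0.85 to 1.26), with 48.0% of the female UMIs in 1 barcode. Ccl8 had 1 UMI in female and 60 in male class II barcodes, and 53% of the male UMIs lay in 1 barcode. Socs1, a feedback inhibitor induced by interferon gamma, had 109 and 292 UMIs, a ratio of -0.80 (-1.13 to -0.48), while Irf8, which DCs need, was at 0.51 (0.34 to 0.68).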
